A study of Mus musculus with 12 samples.

Results

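The genes described here encode the antigens of the major histocompatibility complex (MHC), the proteins that load them, and surface antigens of leukocytes, in the small intestine of fed and fasted mice. They were chosen by the gene names printed in the scanner files of the 12 h arrays: every non-control probe with an H2 symbol, a numbered Cd symbol, or the symbols of the Ly, Fcer and Fcgr families, Lst1, Ptprc, Ii, B2m, Tap1, Tap2, Tapbp and C2ta, leaving out Cd36, Cd63 and Cd79a. This gave 63 probes of 51 gene names, of 20280 probes tested. They were divided into class I presentation (10 probes, 8 genes), class II presentation (6 probes, 5 genes), leukocyte antigens (41 probes, 34 genes) and 6 probes of 4 other genes of the MHC region that encode no antigen. The rule uses gene names and no measured value, but it was written with earlier results of these data known.

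The mice were male FVB animals of 6 weeks, and the whole thickness of the small intestine was taken. The fed group (0 h) had free access to chow, and the other groups had their chow removed for 12, 24 or 72 h in metabolic cages, with an infrared lamp from 24 h on. Each of the 12 arrays carried a Cy3-labelled pool of 2 mice, with 3 pools per time point, against RNA of 6 fed mice in Cy5 as the common reference. For fed replicate 3 one label names only 2 mice as the reference. The mice of all groups, fed ones included, were of the same strain, sex and age.

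Class I molecules consist of a heavy chain and beta-2 microglobulin. They hold peptides that the proteasome cuts in the cytosol and that the transporter Tap1/Tap2 brings into the endoplasmic reticulum, where tapasin (Tapbp) helps to load them. Class II molecules are pairs of an alpha and a beta chain that travel with the invariant chain (Ii, now Cd74) to endosomes, where cathepsins degrade it and H2-DM exchanges its remnant for peptide. Both systems are induced by interferon-gamma. In the small intestine class I molecules are made by nearly all cells, and class II molecules by dendritic cells, macrophages, B cells and, to a degree that depends on the state of the mucosa, by villus enterocytes. Because intact tissue was used, fewer cells of a type and less RNA per cell cannot be told apart.

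By their gene numbers all 63 probes matched a RefSeq gene, and 7 of the 51 names have since changed. Ii is Cd74, Cd3z is Cd247, Cd97 is Adgre5, H2-Bf is Cfb, H2-Ke2 is Pfdn6 and H2-Ke4 is Slc39a7. The 7th name, Ly64, belongs to a gene that RefSeq calls Muc13, a transmembrane mucin of epithelial cells. The names of the files are kept below. Of the 51 genes, 16 lie on chromosome 17, where the mouse MHC is. Heavy-chain genes of class I are near-copies of each other, so a probe named for one of them can also bind transcripts of its neighbours.

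The promoters of class I and class II genes share short elements, and the stretches before the start sites are shown here for 4 genes that were downregulated at 72 h (B2m, H2-T22, H2-T23 and Tap1) and for 2 that were not called then (H2-D1 and H2-Eb1). Each is the 250 bases before the RefSeq start in GRCm38.p6, written 5′ to 3′ on the strand of the gene. This is the sequence of C57BL/6J mice, and FVB mice carry another MHC haplotype. Capitals mark matches on either strand to the Y box (CTGATTGG), the X box (found as AGCAACTGATG), the core of the interferon response element (TTTCACTT), enhancer A (in H2-D1) and the gamma activation site (TTCNNNGAA).
B2m, chr2:122147437-122147686, + strand: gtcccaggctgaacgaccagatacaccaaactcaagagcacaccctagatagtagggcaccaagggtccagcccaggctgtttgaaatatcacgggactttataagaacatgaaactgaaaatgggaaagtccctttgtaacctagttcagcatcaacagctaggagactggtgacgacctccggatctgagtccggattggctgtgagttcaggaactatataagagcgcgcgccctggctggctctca
H2-T22, chr17:36042743-36042992, - strand: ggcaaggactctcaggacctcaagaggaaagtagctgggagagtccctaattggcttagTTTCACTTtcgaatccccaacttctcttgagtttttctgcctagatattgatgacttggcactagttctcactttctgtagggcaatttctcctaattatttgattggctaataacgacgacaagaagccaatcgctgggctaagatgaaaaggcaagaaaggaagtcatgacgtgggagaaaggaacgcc
H2-T23, chr17:36032702-36032951, - strand: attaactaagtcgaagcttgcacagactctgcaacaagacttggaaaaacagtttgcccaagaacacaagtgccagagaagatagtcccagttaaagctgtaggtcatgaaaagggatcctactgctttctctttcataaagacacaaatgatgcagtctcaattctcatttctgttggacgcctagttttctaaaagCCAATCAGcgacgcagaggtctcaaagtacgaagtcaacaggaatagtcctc
Tap1, chr17:34187306-34187555, + strand: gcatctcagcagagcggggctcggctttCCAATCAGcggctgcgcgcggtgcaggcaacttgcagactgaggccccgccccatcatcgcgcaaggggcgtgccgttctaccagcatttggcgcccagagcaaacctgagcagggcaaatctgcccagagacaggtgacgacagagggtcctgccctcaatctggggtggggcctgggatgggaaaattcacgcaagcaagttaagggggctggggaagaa
H2-D1, chr17:35262844-35263093, + strand: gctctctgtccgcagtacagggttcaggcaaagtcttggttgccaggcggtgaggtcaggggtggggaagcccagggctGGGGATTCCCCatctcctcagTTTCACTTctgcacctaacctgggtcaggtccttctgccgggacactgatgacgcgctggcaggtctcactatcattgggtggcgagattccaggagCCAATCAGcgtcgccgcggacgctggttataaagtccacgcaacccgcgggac
H2-Eb1, chr17:34305617-34305866, + strand: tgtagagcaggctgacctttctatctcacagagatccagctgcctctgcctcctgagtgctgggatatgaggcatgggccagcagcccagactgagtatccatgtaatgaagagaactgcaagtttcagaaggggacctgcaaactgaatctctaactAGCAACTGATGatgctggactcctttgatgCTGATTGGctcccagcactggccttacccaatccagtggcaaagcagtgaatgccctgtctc

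H2-D1 held 3 of the elements, namely enhancer A at 171 to 161, the interferon response core at 150 to 143 and the Y box at 53 to 46 bases before the start. H2-Eb1 held the X box (92 to 82) and the Y box (62 to 55), and H2-T23 a Y box at nearly the same place as H2-D1, 52 to 45 bases before the start. Tap1 had its Y box farther away, at 222 to 215, and H2-T22 had only the interferon response core, at 191 to 184. In the window of B2m none of these letter strings was found. Among 32851 promoter windows of the same length, a Y box occurred in 3.83%, the interferon response core in 1.36%, the gamma activation site in 7.02%, the X box in 0.0578% and enhancer A in 0.0304%. Of the 38 member genes whose windows were examined, 6 held a Y box (H2-Aa, H2-D1, H2-Eb1, H2-T23, Ly75 and Tap1), 3 the interferon response core (Fcgr2b, H2-D1 and H2-T22) and 3 the gamma activation site (Cd160, Fcgr1 and Ly64). The other member genes had no window examined, among them H2-Ab1 and, on chromosome 18, Ii. These are matches of letters and no evidence of binding. Members with and without a match were found both among the probes called at 72 h and among those not called.

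All values are log2(Cy3/Cy5), the level in a pool relative to the reference on the same array, and a change is the difference of the means of 2 time points with its standard error (SE) from limma. A probe is called at an adjusted p under 0.05 over all probes. Of the 63 probes, 58 had a value on all 12 arrays, 47 exceeded background clearly in Cy3 on each of the arrays and none was saturated. Over all probes fed replicate 3 correlated with the other fed pools at r = 0.20 and 0.23 only, against 0.78 between those, and the 12 h pools at 0.19 to 0.54, whereas the 24 h pools reached 0.60 to 0.65 and the 72 h pools 0.81 to 0.85. The array of 12 h replicate 1 had an outlier flag on 5.42% of its probes, 3 of them members. The fed and the 72 h files have one format and signal range and the 12 h and 24 h files another, so a difference of 12 h or 24 h from fed cannot be told apart from the file format. In the Cy5 channel, which should not change, 18 of the 63 probes were called at 12 h (21.7% of all probes), 10 at 24 h (20.5%) and 0 at 72 h (0% of all probes by limma, and 5 of the 63 at an unadjusted p under 0.05). The change in Cy3 alone is therefore given beside a call against fed where it differs from that of the ratio by over 1.5 times.

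After 72 h of fasting, 11 of the 63 probes (17.5%) were downregulated and 3 upregulated (4.76%), where 5.69% and 4.83% of all probes were. After 12 h, 3 were lower (4.76%) and 8 higher (12.7%), against 6% and 4.84% of all probes, and after 24 h, 3 were lower and 2 higher, against 6.29% and 3.83%. The 3 comparisons share the fed pools. Class I presentation had 4 of 10 probes lower and none higher at 72 h, class II presentation 2 of 6 lower and none higher, and leukocyte antigens 5 of 41 lower and 2 higher. The median change of class I presentation went from -0.09 after 12 h over -0.18 after 24 h to -0.37 after 72 h. That of class II presentation was 0.09, -0.0014 and -0.10, and that of leukocyte antigens 0.01, 0.03 and -0.05, while the median of all probes lay between -0.02 and 0.02. Thus 6 of the 16 presentation probes were lower at 72 h, namely 40% of class I and 33.3% of class II. Leukocyte antigens were lower in 12.2% and all probes in 5.69%. Of the 6 presentation calls, those of H2-T22, H2-T23, Tap1 and Ii were lost without fed replicate 3. By median, class I (-0.37) lay farther from the array than class II (-0.10) and leukocyte antigens (-0.05).

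Marker genes of other cell types moved as well. Of 6 B and plasma cell probes, 3 were lower at 72 h (5.69% of all probes were), led by Igj, the joining chain of secreted antibodies (-3.19 ± 0.24, adjusted p = 4.97e-06). Xbp1 of the same list changed by 3.85 at 12 h, where only 1 pool had a value, and by 0.38 at 72 h. The summed Cy3 signal of the 6 probes was 4147 to 5078 in the fed pools and 1464 to 1950 at 72 h. Of 6 smooth muscle probes, 4 were higher at 12 h and 2 at 72 h. Their summed Cy3 signal was 4684 to 6099 in the fed pools, 4638 to 6998 at 12 h and 6590 to 7306 at 72 h. In the Cy5 reference 4 of the 6 were called at 12 h (21.7% of all probes were), with a median Cy5 change of -0.77. Acta2 changed by 2.36 ± 0.53 at 12 h (adjusted p = 0.0171). It had 2 pools there, at 0.35 and 2.41, against -0.15, -0.74 and -2.05 in the fed pools. None of the 6 macrophage and dendritic cell probes, the 3 T cell probes or the 3 enterocyte probes was called against fed at any time by limma. At 72 h 2, 1 and 1 of them had an unadjusted p under 0.05, with Lck at -0.82 ± 0.26 (adjusted p = 0.0626). The summed Cy3 signal of the T cell probes was 526 to 551 in the fed pools and 431 to 455 at 72 h. That of the macrophage and dendritic cell probes was 11867 to 51009 and 15320 to 19090. This sum includes 2 Lyzs probes, and the log2 ratios of Lyzs A_65_P08780 ran from -3.84 to 4.65. At 72 h C1qa, C1qb and C1qg changed by -0.44, -0.55 and -0.61, each with its pools below the fed pools. Csf1r changed by -0.08 and the 2 Lyzs probes by 1.47 and -0.49. Of 4 neutrophil probes, 1 was higher at 72 h (4.83% of all probes were), Mpo A_65_P12925 (1.87 ± 0.29, adjusted p = 0.00149). The other Mpo probe, A_65_P07731, was at -0.08 (adjusted p = 0.876) and was well above background on no fed array. The part of these cell types in the changes of the antigen genes was not tested.

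**Figure D1:**
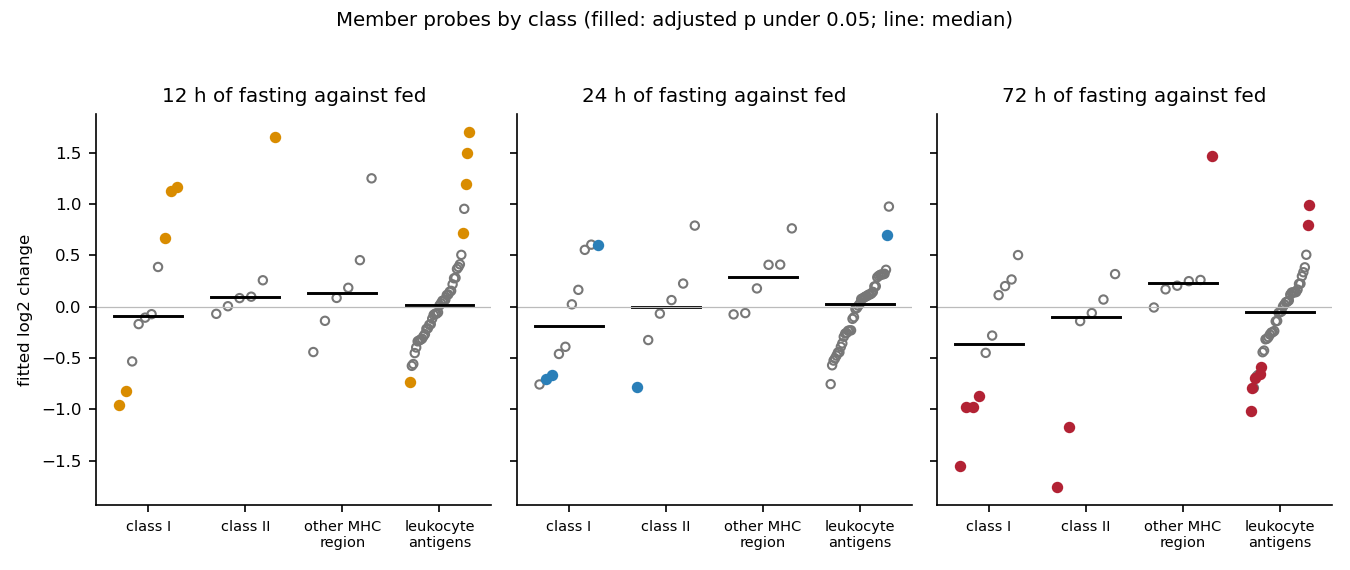
Fitted log2 change of each of the 63 probes against the fed pools after 12, 24 and 72 h, by class, with one circle per probe in order of its change, filled where limma's adjusted p is under 0.05, and a line at the median of the class. At 72 h all 6 called presentation probes lie below 0, at 12 h class I has called probes on both sides, and the medians of the leukocyte antigens stay between -0.05 and 0.03.

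B2m, the light chain that all class I heavy chains need to reach the cell surface, was the class I gene with the largest decline. Its log2 ratios in the fed pools were -0.75, -0.72 and 0.12, after 12 h -0.35, -0.74 and -0.77, after 24 h -0.81, -0.96 and -0.75, and after 72 h -2.11, -1.85 and -2.06. All 3 pools at 72 h lay below the 9 other pools, while the fed, 12 h and 24 h pools overlapped. The decline at 72 h was 2.94-fold against fed (log2 change -1.56 ± 0.22 SE, adjusted p = 0.000717, limma) and 2.24-fold against 24 h (-1.17 ± 0.22, adjusted p = 0.00544). In Cy3 alone it was -1.30 (adjusted p = 0.00313), in Cy5 0.26, and without fed replicate 3, the highest fed pool, the change was -1.27 with an adjusted p of 0.00198.

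Of the heavy chains, H2-T22 and H2-T23, nonclassical class I genes of the T region, had lower log ratios already at 12 h, for H2-T23 with a change in the reference channel and almost none in Cy3. H2-T22 (H2-T10 in the fed files) stood at -0.01, -0.26 and 0.22 in the fed pools, at -0.62, -0.89 and -1.41 after 12 h, at -0.72, -0.71 and -0.73 after 24 h and at -0.92, -0.80 and -0.92 after 72 h. H2-T23, which encodes the Qa-1 antigen recognised by natural killer cells, stood at 0.10, -0.22 and 0.60, then at -0.32, -0.62 and -1.03, at -0.73, -0.34 and -0.72, and at -1.09, -0.61 and -0.73. In both genes every fasted pool lay below every fed pool. H2-T22 changed by -0.96 ± 0.19 at 12 h (adjusted p = 0.0108), -0.70 at 24 h (0.035) and -0.87 at 72 h (0.0108), and H2-T23 by -0.82 ± 0.23 at 12 h (0.0402) and -0.97 at 72 h (0.0161), with -0.76 at 24 h not called (0.0539). In Cy3 alone H2-T22 changed by -0.50, -0.50 and -0.60 at the 3 times, none called. H2-T23 changed in Cy3 by -0.06 at 12 h (adjusted p = 0.894) and -0.07 at 24 h (0.841), while its Cy5 signal rose by 0.76 (0.0122) and 0.69 (0.0179), and at 72 h by -0.83 in Cy3 (0.0286) and 0.15 in Cy5. Without fed replicate 3 none of these 5 calls held (adjusted p between 0.0516 and 0.154), with changes of -0.84, -0.59 and -0.75 for H2-T22 at the 3 times and of -0.60 and -0.75 for H2-T23 at 12 h and 72 h.

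H2-D1, a classical class I heavy chain, had 2 probes that disagreed. A_65_P19395 was at 0.06, 0.00 and -0.26 in the fed pools, at 0.28 and 1.84 in the 12 h pools with a value, at 0.00, 0.04 and 0.25 after 24 h and at -0.69, -0.53 and -0.33 after 72 h. It was called higher at 12 h (1.13 ± 0.33, adjusted p = 0.0445), but its Cy3 signal changed by -0.24 and its Cy5 signal by -1.37, and the 2 pools were far apart. At 72 h its pools lay below all other pools without being called (-0.45 ± 0.29, adjusted p = 0.376), and in Cy3 alone it was called lower. The other probe, A_65_P02316, an expressed sequence tag in the fed files, was called lower at 24 h (-0.67 ± 0.17, adjusted p = 0.0252), with Cy3 at 0.82 and Cy5 at 1.49. No H2-D1 call was shared by both probes, and in both calls the Cy3 signal changed in the other direction than the ratio. Cd1d1, which presents lipids and lies outside the MHC, was not called at any time, with log2 ratios between -0.30 and 0.14 on the 12 arrays.

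The transport and loading genes of class I did not move together. Tap1 was at -0.08, -0.23 and 0.96 in the fed pools, 0.08, -0.21 and -0.83 after 12 h, -0.19, -0.23 and -0.32 after 24 h, and -0.85, -0.69 and -0.75 after 72 h. The 72 h pools were below all fed pools, and the decline was 1.97-fold (-0.98 ± 0.28, adjusted p = 0.0357), but without fed replicate 3, where Tap1 was highest, it was -0.61 with an adjusted p of 0.142. Tap2, the other subunit, was called higher at 12 h and 24 h in the probe A_65_P12258, which was at -0.02, -0.05 and -0.44 in the fed pools, 0.61, 0.55 and 0.36 after 12 h and 0.76, 0.37 and 0.19 after 24 h. These fasted pools lay above the fed ones (0.67 ± 0.18 at 12 h, adjusted p = 0.0318, and 0.61 ± 0.18 at 24 h, adjusted p = 0.0474), and at 72 h it was at -0.03, 0.21 and 0.12, not called. In Cy3 alone the change was 0.22 at 12 h (adjusted p = 0.608) and 0.69 at 24 h (0.0661), and without fed replicate 3 it was 0.54 (0.118) and 0.47 (0.155). The other Tap2 probe, A_65_P14010, was not called at any time (0.39 at 12 h, 0.55 at 24 h, 0.50 at 72 h).

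Tapbp was at -0.32, 0.08 and -0.67 in the fed pools, 0.29, 0.53 and 1.77 after 12 h, 0.33, 0.45 and 0.12 after 24 h and -0.20, -0.01 and -0.11 after 72 h. It was called higher at 12 h (1.17 ± 0.30, adjusted p = 0.0272), where its Cy3 signal changed by 0.27 and its Cy5 signal by -0.90 (adjusted p = 0.0148). After 72 h its pools overlapped with the fed pools (0.20 ± 0.30, adjusted p = 0.734).

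**Figure D2:**
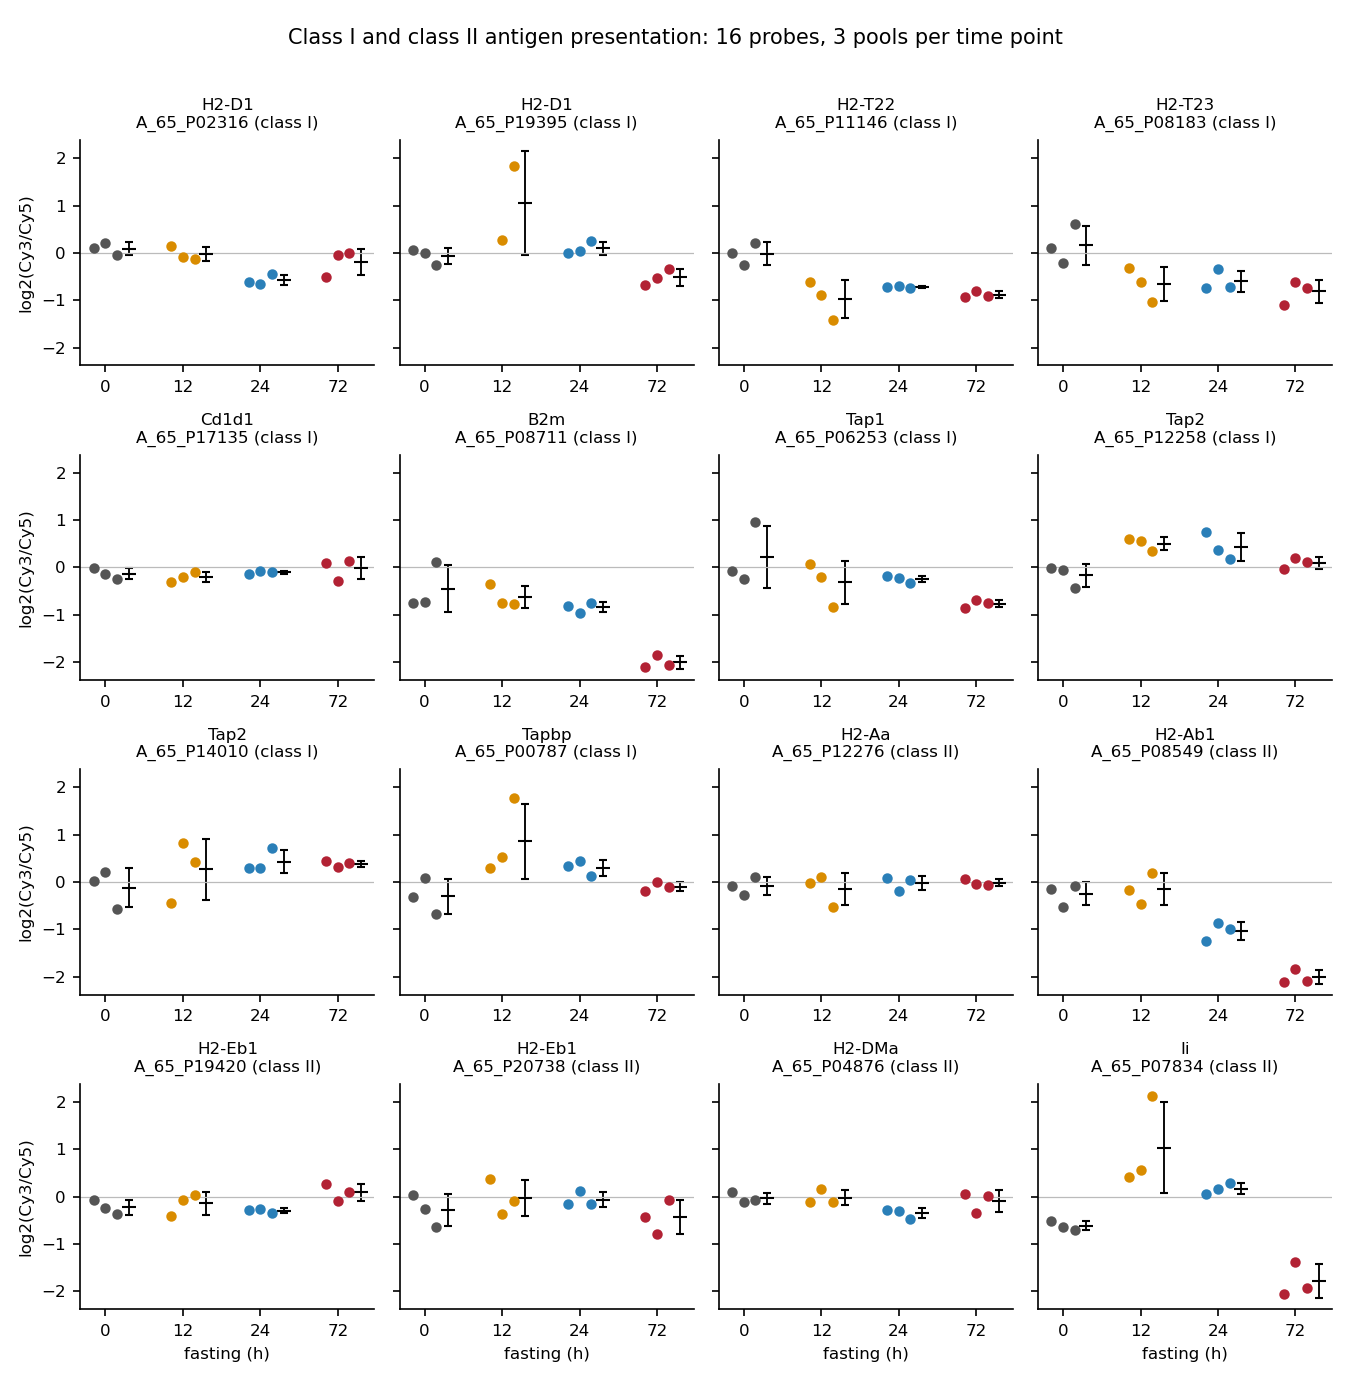
Log2(Cy3/Cy5) of the 16 class I and class II probes on each array against hours of fasting, with one dot per pool of 2 mice and the mean ± SD of the pools beside them. B2m, H2-Ab1, Ii and H2-D1 A_65_P19395 have all 3 of their 72 h pools below every other pool, H2-Aa, H2-Eb1, H2-DMa and Cd1d1 stay near their fed values, and the 12 h pools of H2-D1, Tapbp and Ii are spread widely.

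In class II presentation the decline was confined to H2-Ab1 and Ii among the 6 probes. H2-Ab1, the beta chain of I-A, was at -0.14, -0.52 and -0.08 in the fed pools, -0.17, -0.47 and 0.19 after 12 h, -1.25, -0.86 and -0.98 after 24 h and -2.11, -1.83 and -2.09 after 72 h. The 24 h pools lay below all fed and 12 h pools and the 72 h pools below all 24 h pools. The change against fed was -0.78 ± 0.20 at 24 h (1.72-fold, adjusted p = 0.0231) and -1.76 ± 0.20 at 72 h (3.39-fold, adjusted p = 0.000174), the largest decline among the 63 probes. From 12 to 24 h, both measured in the same file format, it was -0.88 (adjusted p = 0.0272), and from 24 to 72 h -0.97 (adjusted p = 0.00742). Cy3 alone gave -0.66 and -1.57 against fed (adjusted p = 0.0405 and 0.000599), Cy5 0.13 and 0.19. Without fed replicate 3 the call at 72 h held (-1.68, adjusted p = 0.00145), and that at 24 h did not (-0.70, adjusted p = 0.0791).

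Ii, the invariant chain, first rose and then fell. Its fed pools were at -0.52, -0.64 and -0.71, its 12 h pools at 0.42, 0.55 and 2.13, its 24 h pools at 0.05, 0.16 and 0.30 and its 72 h pools at -2.05, -1.38 and -1.93. The fed, 24 h and 72 h pools did not overlap with each other. The rise at 12 h was 1.66 ± 0.34 (3.15-fold, adjusted p = 0.0111), of which Cy3 gave 0.91 (adjusted p = 0.00383) and Cy5 -0.75, the 24 h value of 0.79 was not called (adjusted p = 0.149), and at 72 h Ii was 2.25-fold below fed (-1.17 ± 0.34, adjusted p = 0.0398). The step from 24 to 72 h was -1.96 (3.88-fold, adjusted p = 0.0035). Although its 3 fed pools were close to each other, the adjusted p without fed replicate 3 was 0.0502 at 12 h and 0.104 at 72 h, with changes of 1.61 and -1.21.

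The partner chain of H2-Ab1, H2-Aa, showed no such decline. Its log2 ratios were -0.09, -0.27 and 0.11 in the fed pools and 0.07, -0.04 and -0.07 after 72 h, a difference of 0.07 ± 0.18 (adjusted p = 0.853). At every time point its pools overlapped with the fed ones. The 2 probes of H2-Eb1, the beta chain of I-E, changed by 0.32 and -0.14 at 72 h (adjusted p = 0.25 and 0.763), and H2-DMa, a subunit of the peptide exchanger, by -0.06 (adjusted p = 0.854). None of these 4 probes was called in any of the 3 comparisons with fed.

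Other genes of the machinery were examined as a list of 40 gene names, of which 19 were on the array with 24 probes. At 72 h 5 of the 24 probes were lower (20.8%) and 2 higher (8.33%), against 5.69% and 4.83% of all probes, with a median change of -0.26. At 12 h 2 were higher (8.33%, against 4.84% of all probes) and the rest not called. At 24 h none was called in either direction by limma, against 6.29% lower and 3.83% higher of all probes (5 of the 24 had an unadjusted p under 0.05). The largest decline was that of Psme2, a subunit of the interferon-inducible proteasome activator. Its fed pools were at 0.35, 0.01 and 0.98, the 12 h pools at 0.07, -0.07 and -0.86, the 24 h pools at -0.44, -0.34 and -0.37 and the 72 h pools at -1.77, -1.28 and -1.72, all below the other pools (-2.03 ± 0.26, 4.10-fold, adjusted p = 0.000437). Psmb8, the immunoproteasome subunit encoded next to Tap1, fell by 1.41 ± 0.33 on the log2 scale (adjusted p = 0.0154), from 0.62, 0.19 and -0.23 to -1.26, -1.02 and -1.39. Psme1, which forms the activator with Psme2, was not called (0.05 ± 0.17, adjusted p = 0.877). Its probe was well above background in Cy3 on no fed array and on 1 array at 72 h, so a change could hardly be seen. Psmb10 was called higher at 12 h (2.25 ± 0.65, adjusted p = 0.0438) with 2 pools at 1.05 and 3.51, and was at -0.59 (adjusted p = 0.579) at 72 h. The Psmb10 call was lost in 10 of 15 alternatives, with 0.26 in Cy3 alone (adjusted p = 0.737), 1.02 without 12 h replicate 3 (0.329) and 1.52 without fed replicate 3 (0.137).

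Of the interferon-gamma receptor, Ifngr was higher at 72 h (1.14 ± 0.31, adjusted p = 0.0289) and Ifngr2 was at -0.44 ± 0.17 (adjusted p = 0.124). The transcript of interferon-gamma itself, Ifng, changed by 0.08 ± 0.17 (adjusted p = 0.805), and Irf1 by -0.49 ± 0.34 (adjusted p = 0.415). The Ifng probe was well above background in Cy3 on no fed array, so its change was measured near the floor.

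Of the endosomal enzymes, Ctsb (cathepsin B) was lower at 72 h in the probe A_65_P16794 (-1.29 ± 0.18, adjusted p = 0.000906), from -0.08, -0.24 and 0.28 to -1.42, -1.04 and -1.44, while its 2 other probes, at -0.21 and 0.16, were not called. Ifi30, the thiol reductase that opens disulphide bonds of antigens, fell by 0.93 ± 0.24 on the log2 scale (adjusted p = 0.024), from -0.52, -0.62 and 0.34 to -1.48, -0.88 and -1.24, with -0.51 in Cy3 alone (adjusted p = 0.167). Canx, a chaperone of class I heavy chains, was higher at 12 h (0.86 ± 0.21, adjusted p = 0.0229) and 72 h (0.73 ± 0.21, adjusted p = 0.0406). Rfx5 and Nfya, which bind the X and Y boxes shown above, changed by -0.31 and -0.18 at 72 h and were not called (adjusted p = 0.343 and 0.635). Canx was well above background in Cy3 on 1 fed array, and Rfx5 on 1 fed array and 1 array at 72 h. Without fed replicate 3 the declines of Psme2, Psmb8 and Ctsb at 72 h were still called, and that of Ifi30 (-0.63, adjusted p = 0.101) and the increases of Ifngr (0.85, adjusted p = 0.141) and Canx (0.78, adjusted p = 0.0844) were not.

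**Figure D3:**
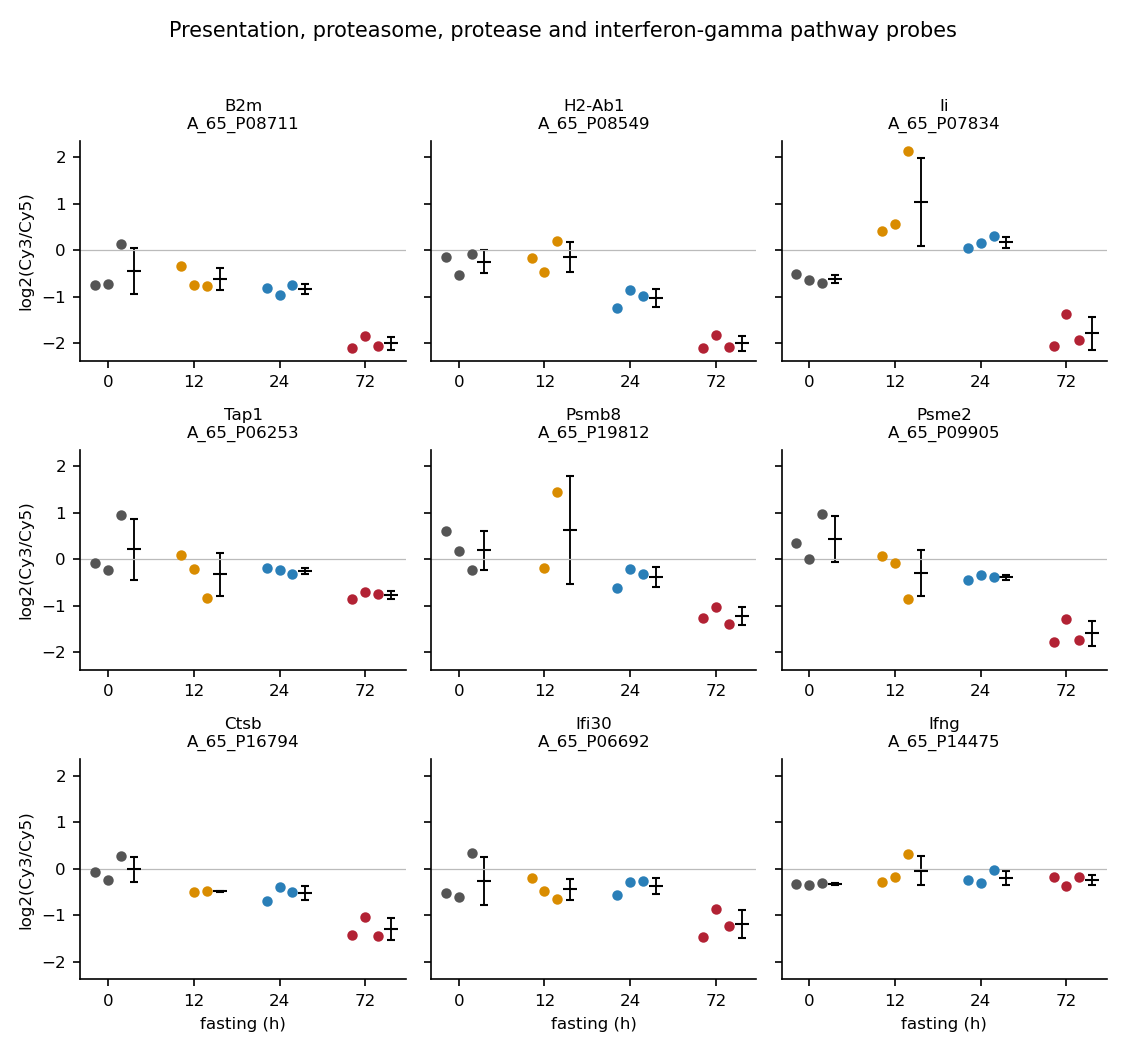
Log2(Cy3/Cy5) on each array against hours of fasting for 4 presentation genes and 5 probes of the proteasome, protease and interferon-gamma list, with one dot per pool and the mean ± SD beside them. The 72 h pools of B2m, H2-Ab1, Ii, Psme2, Psmb8, Ifi30 and Ctsb A_65_P16794 lie below all other pools, and the Ifng pools lie between -0.37 and 0.31; Psmb8 and Ctsb have 2 values at 12 h, since 1 array gave none.

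Among the 41 leukocyte antigen probes, 5 were lower and 2 higher at 72 h. Cd53, a tetraspanin made by most leukocytes, had the largest decline. Its probe A_65_P13360 was at -0.07, -0.36 and 0.06 in the fed pools, -0.46, -0.80 and -0.45 after 12 h, -0.32, -0.31 and -0.05 after 24 h and -1.18, -1.17 and -1.05 after 72 h, below all others (-1.01 ± 0.17, 2.02-fold, adjusted p = 0.00179, and -0.92 with an adjusted p of 0.0108 without fed replicate 3). The other Cd53 probe, A_65_P18501, was not well above background on any fed array and was not called (adjusted p = 0.322), so no fold is given for it.

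Ptprc (CD45), the phosphatase of all nucleated blood cells, was at -0.01, -0.34 and 0.16 in the fed pools, 0.40, 0.09 and 0.27 after 24 h and -0.59, -0.52 and -1.17 after 72 h. It was 1.62-fold lower than fed (-0.69 ± 0.21, adjusted p = 0.0459) and 2.02-fold lower than at 24 h (-1.01 ± 0.21, adjusted p = 0.00824). Cd34, carried by endothelium and blood progenitors, fell from 0.21, 0.32 and -0.03 to -1.10, -0.33 and -0.45 (-0.80 ± 0.21, adjusted p = 0.029), and Cd81, a tetraspanin of many cell types, from -0.30, -0.32 and 0.29 to -0.95, -0.57 and -0.77 (-0.65 ± 0.20, adjusted p = 0.0488). Without fed replicate 3 the change was -0.58 for Ptprc (adjusted p = 0.167), -0.89 for Cd34 (0.049) and -0.45 for Cd81 (0.195). The call of Cd81 was lost in 13 of 15 alternatives, with -0.37 in Cy3 alone (adjusted p = 0.269).

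Of the antigens of T cells, with 7 probes of 6 genes, 1 probe was called. None was called at 12 h or 24 h by limma, where 2 and 3 of them had an unadjusted p under 0.05. At 72 h Cd3z A_65_P01887, the signalling chain of the T cell receptor, was lower (-0.59 ± 0.15, adjusted p = 0.0223), from 0.25, 0.23 and 0.32 to -0.45, -0.34 and -0.17, and its other probe, not well above background on the fed arrays, was not called (adjusted p = 0.932). Cd3e, of the same receptor, changed by -0.05 ± 0.16 (adjusted p = 0.874), and Cd2, Cd6, Cd28 and Cd160 by -0.27 to 0.22. The 2 probes of B cell antigens, Cd22 and Cd37, changed by 0.14 and 0.05 and were not called at any time (none at an unadjusted p under 0.05 either).

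Fc receptors bind the constant part of antibodies. Fcgr3, the low-affinity receptor of macrophages and natural killer cells, was at 0.25, 0.14 and 0.51 in the fed pools, 0.09, -0.45 and -0.94 after 12 h and -0.53, -0.34 and -0.27 after 72 h. It was lower at 12 h (-0.73 ± 0.22, adjusted p = 0.0462) and at -0.68 ± 0.22 at 72 h (adjusted p = 0.0629). The changes of Fcer1g, Fcgr1 and Fcgr2b at 72 h lay between -0.30 and 0.12 and were not called. Fcgrt, the neonatal Fc receptor, has a class I-like heavy chain that pairs with beta-2 microglobulin and carries antibodies across the epithelium. It was called higher at 12 h (1.70 ± 0.34, adjusted p = 0.0117) from 2 pools at 1.07 and 2.54 against 0.43, 0.26 and -0.38 in the fed pools. Its Cy3 signal changed by -0.02 and its Cy5 signal by -1.72 (adjusted p = 0.00727), and at 72 h it was at 0.18, 0.46 and 0.09, not called.

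The Ly genes held 3 of the 4 leukocyte antigens called higher at 12 h. Ly6e A_65_P09273, a lipid-anchored antigen of lymphoid and other cells, was at -0.63, -0.76 and 0.07 in the fed pools, 0.85, 0.39 and 1.94 after 12 h, 0.52, 0.46 and 0.63 after 24 h and -0.93, -0.49 and -1.23 after 72 h. All 12 h and 24 h pools lay above the fed pools, and the increase at 12 h was 1.50 ± 0.33 (adjusted p = 0.0139), with 1.05 in Cy3 alone (adjusted p = 0.0108). The other Ly6e probe, A_65_P10419, was not called at 12 h (-0.27) and was called higher at 72 h (0.80 ± 0.20, adjusted p = 0.0218), where Cy3 gave 0.22 and Cy5 -0.58, so the direction of Ly6e differed between its probes.

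Ly6a (Sca-1) rose at 12 h from 0.22, 0.29 and -0.15 to 0.83, 1.04 and 2.07 (1.19 ± 0.27, adjusted p = 0.0162) and was at 0.14 (adjusted p = 0.797) at 72 h. At 12 h its Cy3 signal changed by 0.44 (adjusted p = 0.162) and its Cy5 signal by -0.75 (0.0739), and without fed replicate 3 the ratio changed by 1.05 (0.0735). Ly64, the Muc13 gene, rose at 12 h from -0.41, -0.07 and 0.04 to 0.71, 0.40 and 0.60 (0.72 ± 0.18, adjusted p = 0.0223), with 0.83 in Cy3 alone (adjusted p = 0.0222) and an adjusted p of 0.0441 without fed replicate 3. Ly9, a receptor of the signalling lymphocyte activation family on T and B cells, was higher only at 72 h among the 3 comparisons with fed (0.99 ± 0.21, 1.98-fold, adjusted p = 0.00861), from 0.04, 0.51 and -0.30 to 1.39, 0.81 and 1.01, with no overlap. Cd84, of the same family, was higher at 24 h in the probe A_65_P13850 (0.70 ± 0.18, adjusted p = 0.027). The other Cd84 probe, A_65_P05230, was not called (adjusted p = 0.0611) and was not well above background on the fed arrays. Its mean signal at 24 h was below that in the fed pools, so the increase of Cd84 was not shared by both probes.

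Of the 41 leukocyte antigen probes 28, among them the bright Cd164 probe A_65_P12589 (-0.14 at 72 h, adjusted p = 0.732), passed the test in none of the 3 comparisons. Of the other genes of the MHC region, H2-Ke6, which encodes a hydroxysteroid dehydrogenase, was higher at 72 h (1.47 ± 0.39, adjusted p = 0.0284), from 1.20, 1.60 and -0.63 to 1.85, 2.39 and 2.35, with 0.81 in Cy3 alone (adjusted p = 0.298) and 0.79 without fed replicate 3 (adjusted p = 0.0318). The 5 probes of H2-Bf, H2-Ke2 and H2-Ke4 were not called, with changes of -0.01 to 0.26 at 72 h.

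**Figure D4:**
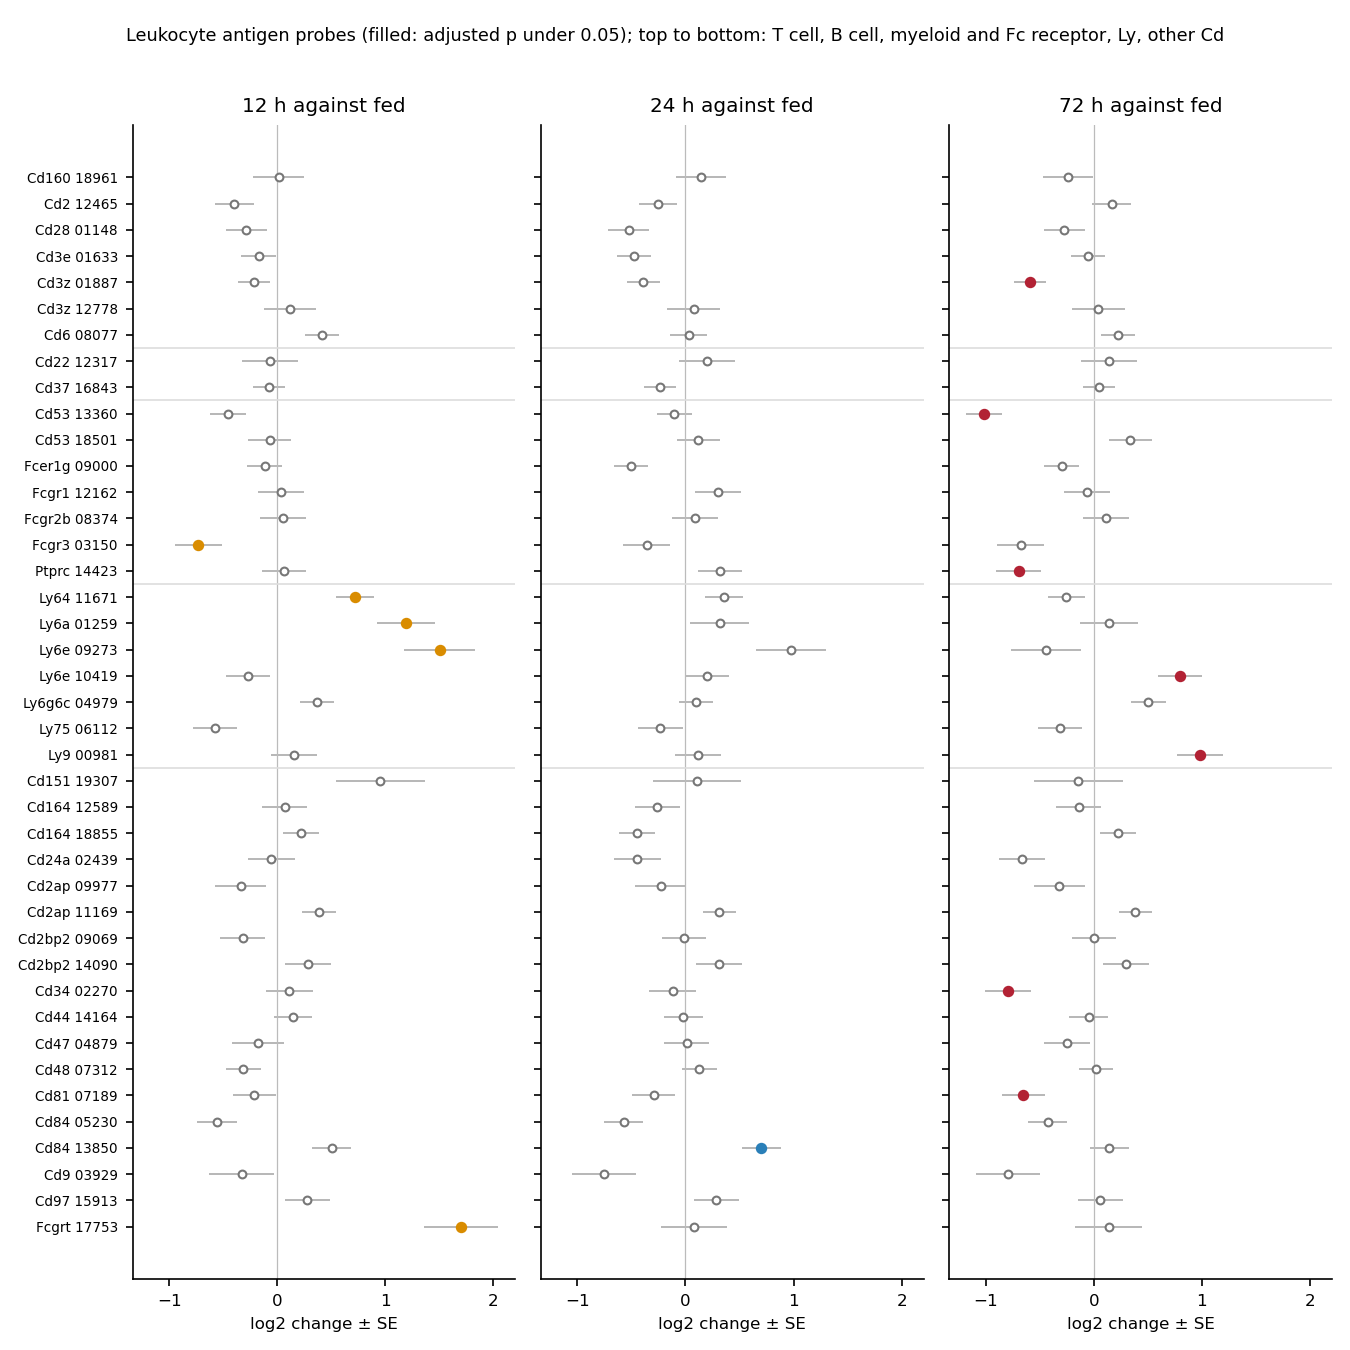
Log2 change ± SE of the 41 leukocyte antigen probes against the fed pools after 12, 24 and 72 h, each row a probe named by its gene and the last digits of its identifier, filled where limma's adjusted p is under 0.05. Calls are few at 24 h, Ly64, Ly6a, Ly6e and Fcgrt are higher at 12 h, and Cd53, Cd34, Ptprc, Cd81 and Cd3z are lower at 72 h.

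The calls at 12 h rested on few pools and partly on the reference channel. Of the 11 probes called at 12 h, 4 were also called in Cy3 alone (Ii, Ly64, Ly6e and Fcgr3), 2 held without fed replicate 3 (Ly64 and Ly6e) and 7 without 12 h replicate 3. Without that pool the change was 0.96 for Fcgrt, 0.72 for Tapbp, -0.48 for Fcgr3 and 0.35 for H2-D1 A_65_P19395. In a fit of the 12 h and fed arrays alone no member was called, where 1 probe of the whole array was lower and 1 higher. Of the 5 probes called at 24 h, 2 held without fed replicate 3 (Cd84 A_65_P13850 and H2-D1 A_65_P02316). At 72 h, 8 of the 14 called probes were also called in Cy3 alone, 6 held without fed replicate 3 (B2m, H2-Ab1, Cd53, Cd34, Ly9 and H2-Ke6), and 13 in a fit of the 72 h and fed arrays alone, which share a file format. B2m, H2-Ab1 and Cd53 were called at 72 h under all 15 alternative settings, as were Psme2 and Ctsb A_65_P16794.

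Between fasted time points, 3 of the 63 probes were lower at 24 h than at 12 h and none higher, against 1.67% and 1.24% of all probes (12 of the 63 had an unadjusted p under 0.05 in limma), and H2-Ab1 was among them. From 24 to 72 h 7 fell and 3 rose, against 4.67% and 5.86% of all probes, and from 12 to 72 h 11 fell and 3 rose, against 4.77% and 5.84%. B2m, H2-Ab1, Ii, Cd53 A_65_P13360, Ptprc, Ly64 and Ly6e A_65_P09273 were lower at 72 h than at both other fasted times, and Ly9 and H2-Ke6 were higher. The comparisons with 72 h cross the file formats.

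**Figure D5:**
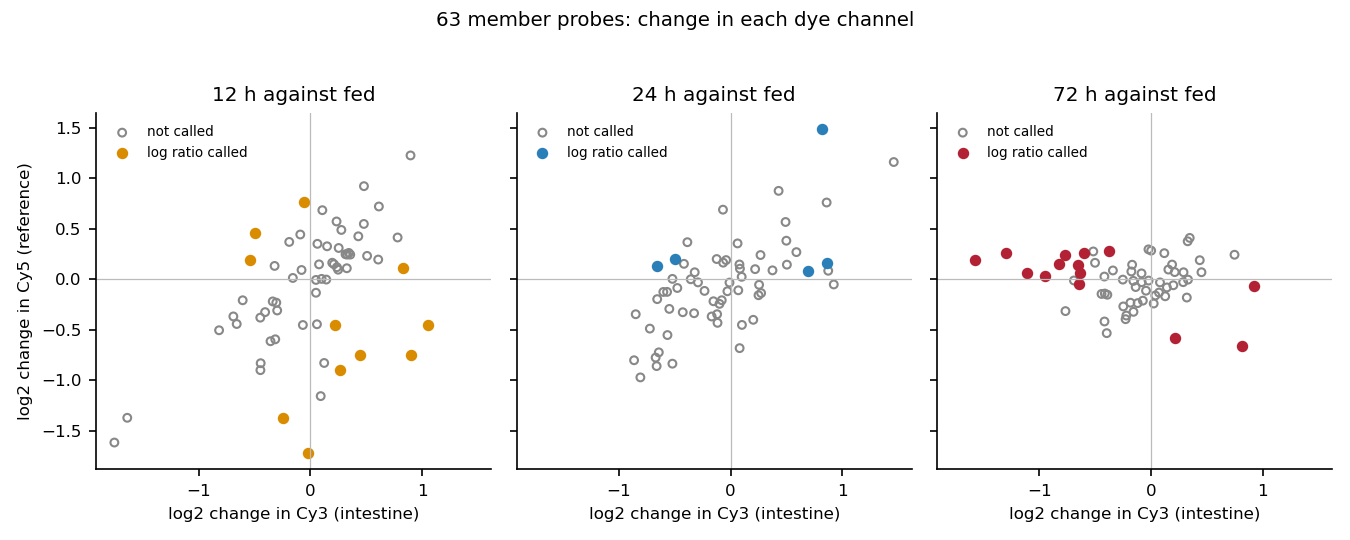
Log2 change of the 63 probes in the Cy3 channel (intestine, horizontal) and in the Cy5 channel (reference, vertical) against the fed arrays after 12, 24 and 72 h, filled where the log ratio is called. At 72 h the Cy5 changes lie between -0.66 and 0.41 and none is called, whereas at 12 h they reach -1.72 and several filled points lie near 0 on the Cy3 axis.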

How the data were processed

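Gene expression was measured on 12 two-colour Agilent oligonucleotide arrays, 3 for each of the fed, 12 h, 24 h and 72 h groups, with intestinal RNA in Cy3 and the reference in Cy5 and no dye swap. The authors deposited scanner files with mean and background intensity for each channel, which were used here, and a table of processed log ratios on a log10 scale, which served as an alternative. That table is recorded as a score, since some of the cells the authors deposited do not match the scanner values, and cells over 3 in size or over 0.7 from the median-centred log10 ratio of the scanner signals were left out. The 1075 control spots of 21446 and 91 retired ones were left out, which gave 20280 probes. Background was corrected with normexp (offset 50), the 24 channels were quantile-normalized, spots with an outlier flag were set to missing, and limma 3.58.1 (R 4.3.3) estimated the mean log2(Cy3/Cy5) of each time point from all arrays together, so that every comparison used the same estimate of the spread. P-values were adjusted by Benjamini-Hochberg over all probes. Each channel was also fitted alone. Means rest on 3 pools of 2 mice, and this number limits the precision.

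All probes of class I and class II presentation are named, and of the leukocyte antigens and of the further pathway genes those called against fed (1 listed pathway gene is counted but not reported by name here), with other probes of the same gene where they differ, and the brightest leukocyte antigens. The members, gene lists and marker lists were chosen with earlier results of these data known. Gene names are those of the 12 h files. Symbols were updated through gene numbers, and promoters taken, from RefSeq tables of GRCm38.p6 (Python 3.11.15, pandas 2.3.3). The scripts were tested on simulated data. Alternatives were other background corrections and normalizations, the deposited log ratios, each time point fitted with fed alone, a block for the pool number, the threshold of the methods (unadjusted p under 0.01 and 1.4-fold), and leaving out each pool.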

Additional observations from a re-analysis of the deposited data

Results flagged for a closer look

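Members that differed between fasted time points are given here as log2 changes with limma, all at an adjusted p under 0.05. Between 24 h and 12 h, measured in files of one format, 3 of the 63 probes were lower and none higher (1.67% and 1.24% of all probes, and 12 of the 63 had an unadjusted p under 0.05), namely H2-Ab1 (-0.88), Cd164 A_65_P18855 (-0.66) and Fcgrt (-1.62). The Cd164 probe was well above background in Cy3 on 1 array at 12 h and 2 at 24 h, so its value lies near the floor. For Fcgrt the 12 h ratio was raised against fed while its Cy3 signal changed by -0.02.

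Between 72 h and 24 h, 7 were lower and 3 higher (4.67% and 5.86% of all probes). The lower ones were B2m (-1.17), H2-Ab1 (-0.97), Ii (-1.96), Ly64 (-0.61), Ly6e A_65_P09273 (-1.42), Cd53 A_65_P13360 (-0.91) and Ptprc (-1.01). The higher ones were Ly9 (0.87), Cd164 A_65_P18855 (0.67) and H2-Ke6 (1.53). This Cd164 probe was well above background in Cy3 on 2 arrays at 24 h and 1 at 72 h.

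Between 72 h and 12 h, 11 were lower and 3 higher (4.77% and 5.84% of all probes). The lower ones were the presentation genes H2-D1 A_65_P19395 (-1.58), B2m (-1.39), H2-Ab1 (-1.86) and Ii (-2.82) and the leukocyte antigens Ly64 (-0.97), Ly6a (-1.05), Ly6e A_65_P09273 (-1.95), Cd53 A_65_P13360 (-0.56), Ptprc (-0.76), Cd34 (-0.91) and Fcgrt (-1.56). The higher ones were Ly6e A_65_P10419 (1.06), Ly9 (0.83) and H2-Ke6 (1.61). Some of these steps start from a 12 h ratio that Cy3 hardly shared. At 12 h against fed the ratio changed by 1.13 for H2-D1 A_65_P19395, 1.70 for Fcgrt and 1.19 for Ly6a. In Cy3 alone these changes were -0.24, -0.02 and 0.44. Comparisons of 72 h with 12 h or 24 h cross the file formats and cannot be told apart from them.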

How the results depend on the processing

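Signal over background limits these arrays (Cy5 medians were 1.65 to 2.12 times background), and the calls at 12 h and 24 h moved with most settings. Leaving out 1 pool in turn, the count of members called lower was 1 to 4 at 12 h, 0 to 3 at 24 h and 3 to 7 at 72 h, and the count called higher 2 to 11, 0 to 1 and 0 to 3, where 328 to 2468, 431 to 781 and 484 to 990 of all probes were lower and 251 to 2126, 164 to 479 and 373 to 761 higher. The lowest count at 72 h (3 lower, 0 higher) came without 72 h replicate 1, and 4 were lower without fed replicate 3, where 484 and 602 of all probes were lower against 1154 with every pool. With Cy3 alone 7, 8 and 9 were lower and 6, 7 and 1 higher at 12, 24 and 72 h, of 1772, 2650 and 866 and of 1230, 2326 and 843 probes of the whole array. In fits of only the time point and fed, 0, 8 and 14 were lower and 0, 3 and 3 higher, of 1, 1821 and 2005 and of 1, 1420 and 1820 probes. Loess, with or without Aquantile, which gave the same ratios, left 10 lower at 24 h (2397 of all probes), the deposited log ratios 6 lower (2189) and 1 higher (1234), the threshold of the methods 6 lower (1616), and subtraction without normexp 1 higher at 24 h (699) and 1 lower at 12 h (1008).

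The pool numbers did not pair the samples, since each pool held other mice and the deviations of same-numbered pools correlated at -0.29 to 0.13 over probes. With the pool number as a replicate block, 1, 2 and 8 members were lower and 7, 1 and 3 higher at 12, 24 and 72 h, of 693, 987 and 913 and of 565, 546 and 786 probes.

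The median of class I presentation was 0.0315 at 12 h with loess, -0.0675 with loess and -0.0391 in Cy3 alone at 24 h, and -0.25 to -0.0595 at 24 h and -0.46 to -0.24 at 72 h with 1 pool left out. That of class II presentation was 0.25 at 12 h with the deposited log ratios, and at 72 h it was 0.0587 with them, 0.0611 with loess and -0.22 to 0.0548 with 1 pool left out. That of leukocyte antigens was 0.12, -0.12 and -0.17 in Cy3 alone at the 3 times, 0.0751 at 24 h over probes above background, and -0.0849 to 0.0184 at 12 h and -0.0923 to 0.0015 at 72 h with 1 pool left out. In Cy3 alone the direction turned for Fcgrt at 12 h (-0.0203), H2-D1 A_65_P19395 at 12 h (-0.24) and 24 h (-0.81), and H2-D1 A_65_P02316 at 24 h (0.82), since their Cy5 signal changed too. A fit within a file format could not be made for 12 h or 24 h against fed.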
